A study of Homo sapiens with 4 samples.

Results

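Of 9 genes that mark the adrenal medulla and the sympathoadrenal lineage, HEK293 cells showed message above the study's detection baseline for 1, the transcription factor GATA3. The genes were TH, DBH, PNMT and DDC for the enzymes of catecholamine synthesis, CHGA, CHGB and SCG2 for granins, and PHOX2A and GATA3 for transcription factors. They were chosen by name, with earlier results of these data known. Each had 1 target with 3 probes on the array, so that 27 probes stood for them. All 9 were matched, among 17217 named genes in all. HEK293 is a line of human embryonic kidney origin transformed with adenovirus DNA, and the labels give its cell type as normal. The 4 samples formed 1 untreated group of the line, grown in DMEM with serum and antibiotics, each from its own plate and its own RNA extraction. There was no second condition and no adrenal sample, so every value was set against the baseline of its own array and against other genes on the same arrays. The RNA came from whole cultures, in which fewer cells with a transcript and less of it in each cell cannot be told apart.

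The adrenal medulla consists of chromaffin cells, which arise from the neural crest and release adrenaline and noradrenaline into the blood. Tyrosine hydroxylase (TH) makes L-DOPA from tyrosine, aromatic L-amino acid decarboxylase (DDC) turns it into dopamine, dopamine beta-hydroxylase (DBH) makes noradrenaline and phenylethanolamine N-methyltransferase (PNMT) makes adrenaline. The amines are stored in dense-core granules together with chromogranin A (CHGA), chromogranin B (CHGB) and secretogranin II (SCG2), acidic proteins that are cut into peptides. PHOX2A and GATA3 are transcription factors that act in the development of sympathetic neurons and chromaffin cells, and GATA3 also acts in the developing kidney and in T cells.

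The baseline is the study's own. It is the mean plus 2 SD of 10 seminal protein genes on each array, which were taken not to be transcribed in this line, and detection meant a positive distance from it, averaged over the 4 arrays. The baseline lay at 9.47, 9.94, 10.69 and 10.32 log2 units on replicates 1 to 4. Of all 17217 named genes 52.7% were detected, against 1 of the 9 sympathoadrenal genes. The 9 had a median distance of -2.59 log2 units, and all named genes had a median of 0.26. Below the baseline on all 4 arrays lay 7 of the 9, against 39.8% of all genes. All 10 widely used reference genes were detected, at 3.10 to 5.55 log2 units, and 1 of 364 olfactory receptor genes was. Olfactory receptor genes are silent in most tissues and served as a second background, with a median level of 6.68 and a 95th percentile of 7.69 log2 units. Probes differ in affinity, so neither levels nor distances rank the amounts of different transcripts in the cell.

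**Figure D1:**
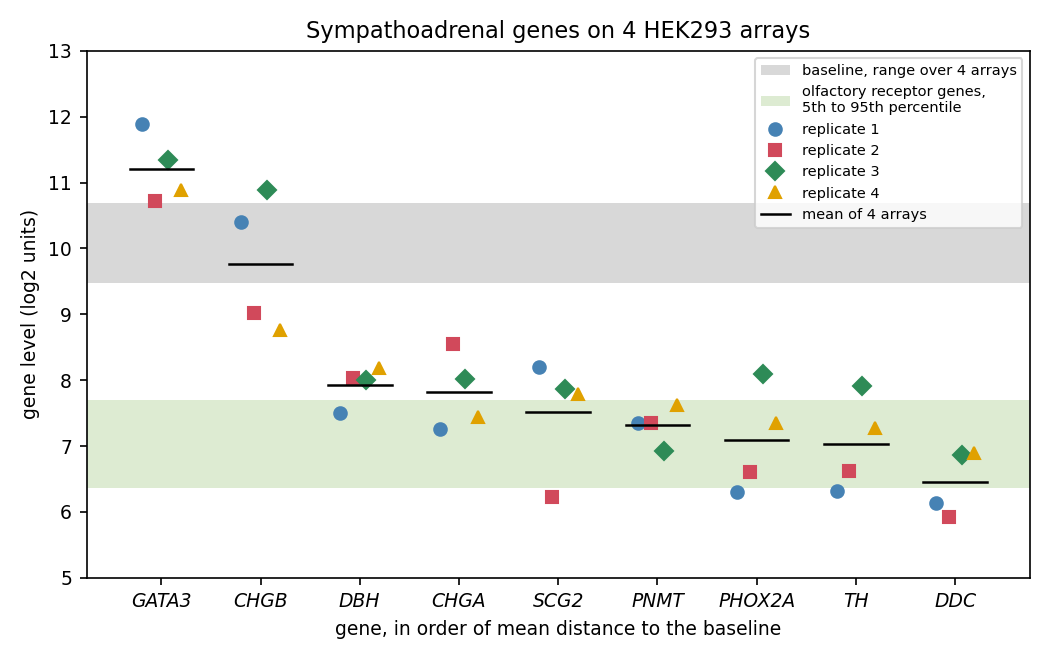
Log2 level of each gene on each of the 4 HEK293 arrays (markers, with the mean as a black line), with genes in order of mean distance to the baseline. The grey band spans the baseline of the 4 arrays, from 9.47 to 10.69, and the green band the 5th to 95th percentile of olfactory receptor genes, from 6.36 to 7.69. GATA3 lies highest, CHGB falls on both sides of the baseline, and the other 7 genes lie below it.

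The enzymes of catecholamine synthesis all lay below the baseline on all 4 arrays. TH, the rate-limiting enzyme, had levels of 6.32, 6.62, 7.92 and 7.28 log2 units on replicates 1 to 4. Its distance to the baseline was -3.07 ± 0.23 log2 units (SD, n = 4), and 65 of 364 olfactory receptor genes (17.9%) had a higher mean level. The arrays of replicates 3 and 4 were the higher ones for TH in level, as they were for the baseline. In distance the 4 arrays ran from -3.32 to -2.77. DDC, which also decarboxylates 5-hydroxytryptophan in serotonin synthesis, had levels of 6.14, 5.93, 6.86 and 6.89. Its distance was -3.65 ± 0.32 (SD, n = 4). It was the lowest of the 9 genes, and 307 olfactory receptor genes (84.3%) had a higher mean level.

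DBH and PNMT carry out the steps after dopamine. DBH had levels of 7.50, 8.03, 8.00 and 8.19 log2 units and a distance of -2.17 ± 0.36 (SD, n = 4). The lowest value was that of replicate 1, and the other 3 lay between 8.00 and 8.19. Of the olfactory receptor genes 11 (3.02%) had a higher mean level. The second probe of DBH by the number in its name gave 7.46 on replicate 1 and 9.13 to 9.27 on the others, whereas the other 2 lay between 6.35 and 7.87 on all arrays. PNMT had levels of 7.35, 7.35, 6.93 and 7.63 and a distance of -2.79 ± 0.70 (SD, n = 4). None of the 12 probes of the 4 enzymes reached the baseline on any array.

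Promoter sequence was at hand in RefSeq (GRCh38.p14) for 5 of the 9 genes, DBH, DDC, PHOX2A, CHGA and GATA3, as windows from 250 bases before to 50 bases after a start site. They were searched on both strands for TGACGTCA, the cyclic AMP response element that CREB binds, and for TGACG, which overlaps it. GATA, GATAA and TATAAA were searched as well. GATA was found in windows of PHOX2A, CHGA and GATA3, and 49.7% of all windows hold it. GATAA and TATAAA were found in windows of GATA3 alone, and 22.7% and 11.5% of all windows hold them. The CHGA window held the full cyclic AMP response element, its first base at -54 from the start, and 1.85% of 35116 promoter windows hold it. The DBH window held TGACG alone, its first base at -181, and 24.6% of windows hold that on either strand. Neither TGACGTCA nor TGACG was found in the windows of DDC, PHOX2A or GATA3. The stretches of 100 bases around these matches are shown because CHGA and DBH are the granin and the enzyme gene with TGACGTCA or TGACG. They lie on the plus strand at chr14:92923046-92923145 and chr9:133636132-133636231, with the matched letters in capitals.
CHGA: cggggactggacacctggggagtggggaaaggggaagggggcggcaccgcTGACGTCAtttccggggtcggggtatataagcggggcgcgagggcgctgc
DBH: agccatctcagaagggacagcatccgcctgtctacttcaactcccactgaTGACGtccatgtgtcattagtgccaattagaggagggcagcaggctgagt

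Among the granins CHGB stood apart from CHGA and SCG2. CHGB, a core protein of the granule, had levels of 10.40, 9.02, 10.89 and 8.76 log2 units on replicates 1 to 4. It lay above the baseline on replicates 1 and 3, by 0.93 and 0.20, and below it on replicates 2 and 4, by -0.91 and -1.56. Its mean distance of -0.33 ± 1.11 (SD, n = 4) was smaller than the spread between arrays, and the call depended on the arrays used. Without replicate 4 it was 0.07, on replicates 1 and 3 alone 0.57, and on replicates 2 and 4 alone -1.24. Within the pairs of arrays that share a distribution of values, it was 0.01 on replicates 1 and 2 and -0.68 on replicates 3 and 4. Against a baseline from olfactory receptor genes, which lay at 7.75 to 8.33, CHGB was above on all 4 arrays by a mean of 1.75 (limma adjusted p = 6.47e-06). At that lower baseline 71.4% of all genes were detected, and 1 olfactory receptor gene had a higher mean level than CHGB.

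All 3 probes of CHGB had both of replicates 1 and 3 above both of replicates 2 and 4. In gene level that held for CHGB, SCG2 and GATA3 among the 9, and for 22.2% of all genes. The reverse order held for 2 of the 9 and for 18.5% of all genes. The CHGB probe with the lowest number in its name gave 11.13 and 11.83 log2 units on replicates 1 and 3, and 9.91 and 9.53 on replicates 2 and 4. The middle probe gave 10.61 and 10.71 against 8.86 and 8.84. The probe with the highest number gave 7.97 and 8.55 against 7.08 and 6.69, all below the baseline. The gap between the lower of replicates 1 and 3 and the higher of replicates 2 and 4 was 1.38 for the gene. A gap of at least 1 in that direction was found in 1.86% of all named genes, and this split was picked after the values had been seen. Other genes of the lists with such a gap included SOX11 (5.07), NEFM (4.77), GFRA3 (2.02) and MAOB (1.73). In the other direction CYP17A1 had levels of 7.21 and 7.23 on replicates 1 and 3 against 9.86 and 9.85 on replicates 2 and 4. The labels name no batch that separates these arrays, and the origin of the split was not tested.

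CHGA, from which the peptides vasostatin and catestatin are cut, had levels of 7.25, 8.55, 8.02 and 7.45 log2 units. Its distance was -2.29 ± 0.66 (SD, n = 4), with replicate 2 nearest to the baseline. SCG2, the precursor of secretoneurin, had levels of 8.20, 6.22, 7.87 and 7.79 and a distance of -2.59 ± 1.01 (SD, n = 4). Replicate 2 was the lowest for SCG2. Olfactory receptor genes with a higher mean level numbered 16 for CHGA and 26 for SCG2. None of the 6 probes of CHGA and SCG2 reached the baseline on any array.

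The transcription factors differed from each other. GATA3 had levels of 11.89, 10.72, 11.34 and 10.89 log2 units on replicates 1 to 4 and exceeded the baseline on each of the 4, as 45% of all genes did. Its distances were 2.42, 0.78, 0.65 and 0.57, with a mean of 1.10 ± 0.88 (SD, n = 4). The limma adjusted p was 0.00203. It rests on a standard error of 0.351 that all genes took, and not on the spread of GATA3 itself. By the limma test 45.9% of all genes were called. Replicate 1 was the high array, and without it the distance was 0.66 and no longer passed the test (limma adjusted p = 0.0573). With the mean of log2 probe values in place of log2 of the mean linear value, it was 0.44 (limma adjusted p = 0.238). Within the pairs of arrays with a shared distribution it was 1.60 on replicates 1 and 2 (limma adjusted p = 0.000631) and 0.61 on replicates 3 and 4 (limma adjusted p = 0.104). No olfactory receptor gene had a mean level as high as GATA3, which ranked at the 58.4th percentile of all named genes.

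The 3 probes of GATA3 did not read alike. The 2 with lower numbers in their names gave 11.06 to 12.53 and 11.25 to 12.33 log2 units and were the only ones of the 27 probes above the baseline on all 4 arrays. The probe with the highest number gave 6.31 to 8.33 and lay below the baseline on each array. Its mean differed from the mean of the other 2 by -4.62 log2 units, a gap this low or lower being found in 1.44% of 10142 targets of detected genes. Whichever probe was the lowest, 7.67% of those targets had a span between probes at least as wide as that of GATA3, 4.66 log2 units. In those targets the probe with the highest number was the lowest of the 3 in 46.5%, with a median gap of -0.39. In CHGB too the probe with the highest number was the lowest, with a gap of -2.61. What the number stands for is not given in the sources used here, and the origin of the gap was not tested.

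PHOX2A had levels of 6.31, 6.60, 8.09 and 7.36 log2 units and a distance of -3.01 ± 0.32 (SD, n = 4). As for TH and for the baseline, replicate 3 was the highest and replicate 1 the lowest in level. A single reading stood out, 9.26 on replicate 3 by 1 probe, against 5.67 to 7.78 by the same probe on the other arrays. All 3 probes lay below the baseline on all 4 arrays.

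**Figure D2:**
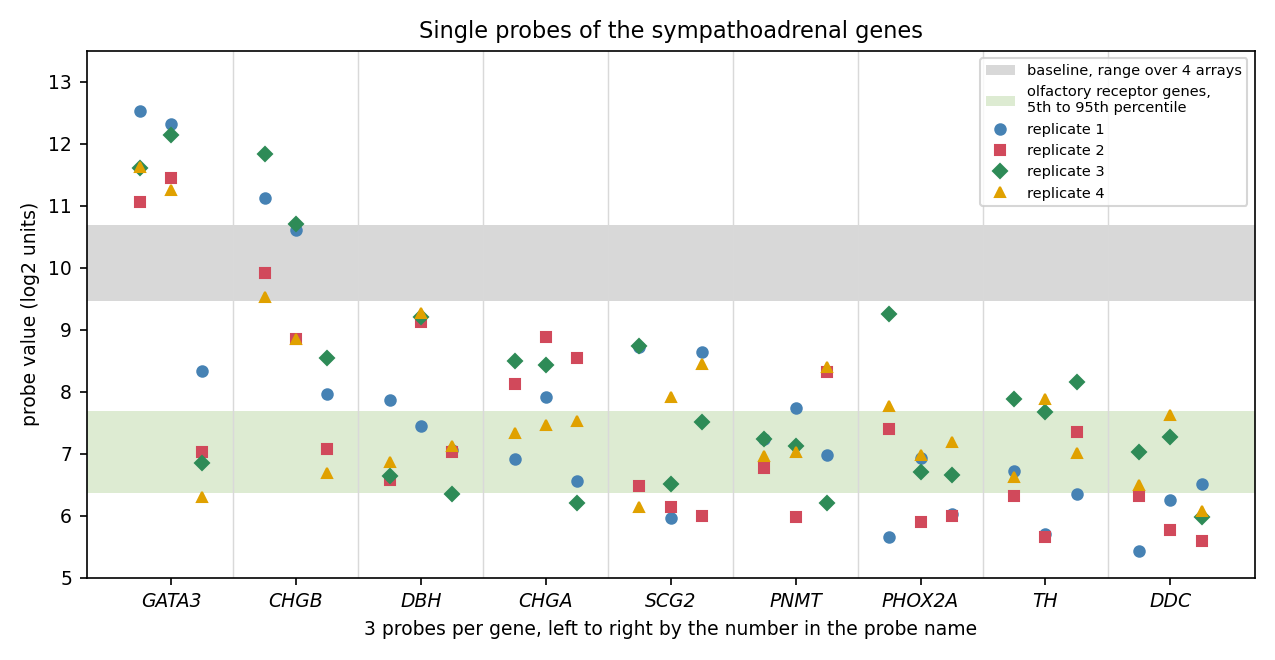
Log2 value of each of the 27 probes on the 4 arrays (markers), 3 probes per gene from left to right by the number in the probe name, with the baseline (grey band, 9.47 to 10.69) and olfactory receptor genes (green band, 6.36 to 7.69). The left and middle probes of GATA3 lie above the grey band while its right probe lies between 6.31 and 8.33, and each CHGB probe has replicates 1 and 3 above replicates 2 and 4.

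In order of mean distance the genes ran GATA3, CHGB, DBH, CHGA, SCG2, PNMT, PHOX2A, TH and DDC. Of the 8 pairs of neighbours 6 had ranges over the 4 arrays that overlapped. The pairs without overlap were CHGB over DBH, by 1.84 ± 1.23 log2 units, and TH over DDC, by 0.58 ± 0.38 (SD of the difference, n = 4). GATA3 and CHGB overlapped in range, although GATA3 was the higher on each of the 4 arrays.

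The height of the baseline set how many of the 9 genes were detected. Of the 10 control genes AFG2A (SPATA5) and SPATA13 had distances of -0.13 ± 0.15 and -0.38 ± 0.19 (SD, n = 4), while the other 8 ran from -3.58 to -2.85. Without them 4 of the 9 were detected, where 74% of all genes were, and GATA3 stood at 3.43, CHGB at 1.99, DBH at 0.15 and CHGA at 0.04. Of those 4 the limma test called GATA3 and CHGB. With 1 SD, and with the median and scaled deviations of the controls, GATA3 and CHGB were detected, where 64.3% and 67.7% of all genes were. With a baseline of 3 SD, under which 39.1% of all genes were detected, 0 of the 9 were detected and limma called 0, with 0 at an unadjusted p under 0.05, and GATA3 was at -0.21. In mean distance over the 4 arrays TH, DDC, PNMT, PHOX2A and SCG2 lay below each of the 6 baselines tried. SCG2 was the nearest, at -0.26 against the lowest one. Single arrays could differ, as SCG2 on replicate 1, at 8.20, lay above the olfactory receptor baseline of 7.75.

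**Figure D3:**
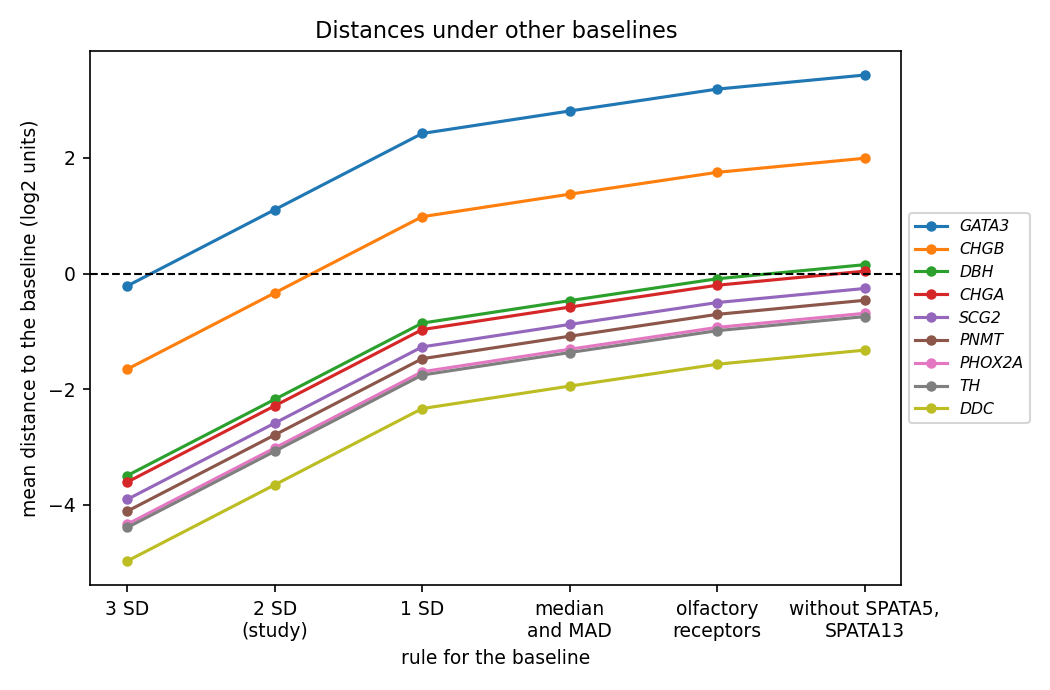
Mean distance of each gene over the 4 arrays under 6 rules for the baseline, with the study's rule second from the left, lines joining the values of a gene and the dashed line marking 0. GATA3 runs from -0.21 to 3.43 and CHGB from -1.65 to 1.99, while DDC stays lowest throughout, from -4.97 to -1.32.

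TH needs tetrahydrobiopterin as a cofactor. Of 6 genes for making and recycling it 4 were above the baseline on all 4 arrays, as 45% of all genes were. The lists that follow are read against the 52.7% of all genes detected and the 45.9% called by limma, and they were not tested against other genes. GCH1, the first and rate-limiting enzyme, stood at 2.96 ± 0.66 log2 units above the baseline, PTS at 2.39 ± 1.02 and SPR, which completes the synthesis, at 2.92 ± 0.64 (SD, n = 4 for each). PCBD1, which recycles the spent cofactor, stood at 3.75 ± 0.57 (SD, n = 4). QDPR, which works at the next recycling step, was near the baseline at -0.41 ± 0.93, and GCHFR, a regulator of GCH1, was below it at -3.00 ± 0.78 (SD, n = 4 for each).

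Among 8 genes of catecholamine storage, uptake and breakdown 3 were detected, and limma called 2. Among those called CYB561, a cytochrome of the granule membrane, stood at 1.84 ± 0.66 (SD, n = 4). Monoamine oxidase A (MAOA) had a mean of 0.36 ± 0.97 and was above the baseline on 2 of 4 arrays (limma adjusted p = 0.306). MAOB stood at -0.63 ± 1.30 (SD, n = 4). The vesicular monoamine transporters SLC18A1 and SLC18A2 were at -1.56 ± 0.61 and -1.72 ± 0.57, and the noradrenaline transporter SLC6A2 was at -3.26 ± 0.53 (SD, n = 4 for each), all of them below the baseline on all 4 arrays.

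Of 13 further transcription factors of the lineage 6 (46.2%) were detected, near the 52.7% of all genes. Limma called 4, where it called 45.9% of all genes. These 4 were TFAP2A at 3.90 ± 0.57, SOX4 at 3.19 ± 0.98, HAND2 at 2.04 ± 0.80 and GATA2 at 1.41 ± 0.56 (SD, n = 4 for each), each above the baseline on all 4 arrays. TFAP2A and SOX4 act in many tissues besides the neural crest, and HAND2 and GATA2 act with GATA3 in sympathetic neurons. With a baseline of 3 SD HAND2 was at 0.72 (limma adjusted p = 0.0991) and GATA2 at 0.09, and neither passed the test. INSM1 had a mean of 0.52 ± 0.93 (limma adjusted p = 0.142) and passed the test without replicate 3, at 0.95 (limma adjusted p = 0.0132). Without replicate 2 INSM1 was at 0.21 (limma adjusted p = 0.635), and with the mean of log2 probe values at 0.06 (limma adjusted p = 0.846). SOX11 gave 3.96 and 2.70 on replicates 1 and 3 and -1.62 and -2.36 on replicates 2 and 4, so that its mean of 0.67 ± 3.13 (SD, n = 4) described no array. Its limma adjusted p was 0.0603 with the standard error of 0.351 that all genes took, and 0.674 with a trend and a robust prior. With no trend or robust prior SOX11 passed the test without replicate 2 or replicate 4, at 1.44 and 1.68 (limma adjusted p = 0.00145 and 0.000242). Without replicate 1 it was at -0.42. Below the baseline on all 4 arrays lay 5 of the 13. Among these were HAND1 at -1.28 ± 0.85, SOX10 at -1.47 ± 1.04 and TFAP2B at -3.36 ± 0.35 (SD, n = 4 for each).

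Of 11 further genes for granins, prohormone processing and granules 3 were detected, all called by limma. Carboxypeptidase E (CPE), which trims peptides after cleavage, stood at 4.05 ± 0.62, and PAM, which amidates them, at 3.80 ± 0.69 (SD, n = 4 for each). PCSK1N, the precursor of an inhibitor of prohormone convertase 1, stood at 1.49 ± 0.69 (SD, n = 4), but at 0.35 by the median of its probes (limma adjusted p = 0.342). The convertases themselves, PCSK1 and PCSK2, were at -3.17 ± 0.77 and -1.68 ± 0.84, and the granins SCG3 and VGF at -3.36 ± 0.47 and -2.36 ± 0.42 (SD, n = 4 for each). SCG5, the chaperone of PCSK2, was at -0.12 ± 0.64 and above the baseline on replicate 1 alone.

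Of 15 chromaffin peptides, growth factor receptors and nicotinic subunits 13 were matched, all but PENK and DLK1. Of these 5 were detected, and limma called 4. They were the peptides GAL at 3.33 ± 0.89 and ADM at 2.29 ± 0.77, and the nicotinic receptor subunits CHRNA5 at 2.51 ± 0.72 and CHRNA7 at 1.85 ± 0.34 (SD, n = 4 for each). CHRNA7 has a near-identical partial copy in the genome, CHRFAM7A, so its value is uncertain. The ganglionic subunits CHRNA3 and CHRNB4 stood at -1.72 ± 0.52 and 0.45 ± 0.64, with 3 of 4 arrays of CHRNB4 above the baseline (limma adjusted p = 0.203). The receptor kinase RET was at -1.69 ± 0.47 (SD, n = 4).

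Among 14 adrenergic and dopamine receptors, through which the products of the pathway act, 1 was detected and limma called 0, with 0 of the 14 at an unadjusted p under 0.05 and 0 when limma used a trend and a robust prior. The receptor was ADRA1B, at 0.52 ± 0.53 and above the baseline on all 4 arrays (limma adjusted p = 0.143). It fell below the baseline with the mean of log2 probe values (-0.37) and with the median of the probes (-1.06), so that 0 of the 14 were then detected. The other 13 lay below the study's baseline on all 4 arrays. At the lower baseline from olfactory receptor genes 3 of the 14 were detected, where 71.4% of all genes were. There DRD2 stood at 0.80 and DRD4 at 0.95 (limma adjusted p = 0.00528 and 0.00119). Without the controls SPATA5 and SPATA13 4 of the 14 were detected, where 74% of all genes were.

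**Figure D4:**
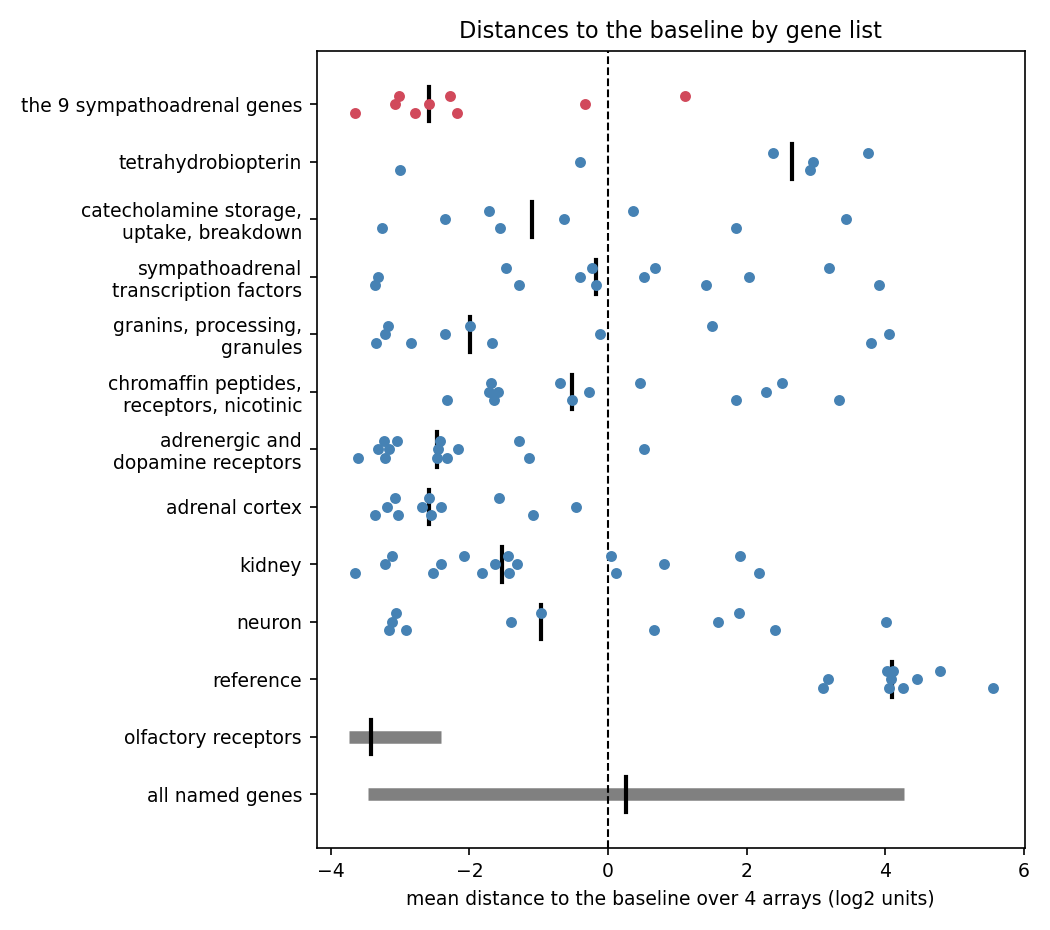
Mean distance over the 4 arrays to the baseline, in log2 units, for each gene (dots) of the 9 sympathoadrenal genes (red) and the other lists (blue), with the list median as a black bar, and for olfactory receptor genes and all named genes the 5th to 95th percentile as a grey bar. The dashed line is the baseline, which GATA3 alone of the 9 exceeds, at 1.10, while the tetrahydrobiopterin genes have a median of 2.65.

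Markers of the neighbouring tissue and of the labelled origin were read on the same scale. Of 11 adrenal cortex genes 0 were detected and limma called 0, with 0 at an unadjusted p under 0.05 and 0 with the trend and robust prior. All of them lay below the study's baseline on all 4 arrays, and their median of -2.58 log2 units was close to the -2.59 of the 9 sympathoadrenal genes. These zeros hold at that baseline. At the lower baseline from olfactory receptor genes 3 of the 11 were detected, where 71.4% of all genes were. Among them were FDX1 at 1.62 and NR5A1 at 1.01 (limma adjusted p = 1.08e-06 and 0.000431). Of 16 kidney genes 5 were detected and limma called 3, shares below the 52.7% and 45.9% of all genes, among them SALL1 at 1.90 ± 0.30 and WT1 at 0.81 ± 1.03 (SD, n = 4 for each, limma adjusted p = 0.0232 for WT1). By the median of the probes WT1 was at -0.13, and it no longer passed the test without replicate 2 or replicate 4, at 0.55 and 0.60 (limma adjusted p = 0.224 and 0.188). PAX2 and PAX8, which also mark embryonic kidney, were at -1.63 ± 0.74 and -3.12 ± 0.90 (SD, n = 4 for each). Of 11 neuronal genes 5 (45.5%) were detected, near the 52.7% of all genes, and limma called 4, where it called 45.9% of all genes. The light neurofilament NEFL stood at 4.01 ± 0.56 and alpha-internexin, INA, at 2.41 ± 1.04 (SD, n = 4 for each). STMN2 and ELAVL4, markers of differentiated neurons, were at -3.12 ± 0.51 and -2.91 ± 0.68 (SD, n = 4 for each).

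Of the 18 nearest protein-coding genes with a target, 1 on either side of each of the 9 on its chromosome, 9 were detected, a share near the 52.7% of all genes. DDC lay between FIGNL1 at 2.25 ± 0.72 and GRB10 at 2.78 ± 0.53, PHOX2A between INPPL1 and CLPB, both at 2.44, and CHGA between GOLGA5 at 2.69 ± 0.58 and ITPK1 at 2.37 ± 0.39 (SD, n = 4 for each). TH lay between INS at -3.21 ± 0.28 and ASCL2 at -3.61 ± 0.64, and SCG2 between KCNE4 at -2.92 ± 0.37 and AP1S3 at -1.40 ± 0.70 (SD, n = 4 for each), with no array of these above the baseline. The levels most like those of GATA3 over the 4 arrays were those of MOB2, ZNF768 and DOCK8, with root mean square differences of 0.11, 0.14 and 0.14 log2 units, and 617 genes lay within 0.5 of it.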

How the data were processed

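The 4 samples were hybridised in a single colour (Cy3) to NimbleGen arrays of long probes designed on HG18, with RNA copied from an oligo(dT) primer. The table deposited by the authors holds log2 values of 71998 probes on each array. The labels name RMA, without saying how it was used, and background correction and normalization between arrays are not given in the sources used here. Once sorted, values of replicates 1 and 2 coincided to 0.01 for 99.97% of probes, and values of 3 and 4 for 99.99%, but values of any other pair of arrays for at most 1.25%, as when arrays are quantile normalized 2 at a time. Spot background was not examined. Probe names were matched through RefSeq (GRCh38.p14), which named 19125 of 24000 targets and 17217 genes.

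Probes of a target were averaged on the linear scale before taking log2, and targets of a gene were averaged as log2. The detection rule was the study's, with 10 of its 11 control genes matched. Distances were tested one-sided against 0 by limma 3.58 (R 4.3), adjusted by Benjamini-Hochberg over all 17217 genes at 0.05, and the script was tested on simulated data. In the reported setting all genes took 1 standard error of 0.351, whereas with olfactory receptor controls the errors differed between genes. The genes of an array share its baseline, so their tests were not independent. P-values cover only the spread between these 4 arrays, pooled over genes in the reported setting, and not the spread of the single gene. The number of arrays limits the precision.

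The genes and lists were chosen with earlier results of these data known. The genes named were the 9, the controls, those of the lists, the nearest neighbours on the chromosome and the 3 nearest in level to the highest of the 9. Some genes of the lists are counted in them but their values are not reported here. Python 3.11 was used for the rest.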

Additional observations from a re-analysis of the deposited data

Results flagged for a closer look

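Dixon's ratio, the gap between an extreme array and its nearest neighbour as a share of the whole range, passed its 95% critical value for 4 arrays in 4 of 121 values, where chance passes about 1 in 20. GATA3 had a ratio of 0.884, because replicate 1 was at a distance of 2.42 while the other arrays ran from 0.57 to 0.78. Its log2 level gave a ratio of 0.472. STAR, a gene of the adrenal cortex, had a ratio of 0.932, with replicate 1 at -1.57 while the other arrays ran from -3.09 to -2.99. CYP11B1, also of the cortex and nearly identical to its neighbour CYP11B2, had a ratio of 0.931, with replicate 2 at -3.75 and the other arrays from -3.26 to -3.23. ADRA2B, an adrenergic receptor, had a ratio of 0.845, with replicate 1 at -1.79 and the other arrays from -2.79 to -2.64. The baseline was lowest on replicate 1, at 9.47 log2 units, and in log2 level, which leaves the baseline out, the ratios were 0.465 for STAR, 0.315 for CYP11B1 and 0.593 for ADRA2B. Like that of GATA3, none of these passed the critical value.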

How the results depend on the processing

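The alternatives were fixed together with the gene lists. For counts of genes, 65 alternative values stayed within 1.5 times the reported one and 25 did not. Of single distances and list counts 1370 stayed within 1 SD or 1.5 times, 567 moved further and 35 distances above the baseline fell below it. The SD was that of the gene itself between arrays, so a gene with a wide spread could shift far and still count as staying. SOX11 did so at 3.33 on replicates 1 and 3 alone, against 0.67 as reported. A rise above the baseline was counted by its size alone. CHGB without replicate 4 (0.07) was thus among those that stayed, although it crossed the baseline. No paired analysis was possible because the labels give a single group.

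The 9 genes gave 1 detected gene in the reported setting, 2 with a baseline of 1 SD, 0 with 3 SD, 4 without SPATA5 and SPATA13, 2 with olfactory receptor controls, 2 with the controls' median plus scaled absolute deviations (MAD), 2 on replicates 1 and 2 alone, 2 on replicates 1 and 3 alone, and 1 to 2 with each replicate left out. The limma test called 1 of the 9 as reported, 2 with 1 SD, 0 with 3 SD, 2 without SPATA5 and SPATA13, 2 with olfactory receptor controls, 2 with the median and MAD, 0 with the mean of log2 probe values, 0 on replicates 3 and 4 alone, 0 on replicates 2 and 4 alone, and 0 to 1 with each replicate left out. On replicates 3 and 4 alone GATA3 stood at 0.61 (limma adjusted p = 0.104) and on replicates 2 and 4 alone at 0.67 (limma adjusted p = 0.0535). The 65 genes of the pathway lists gave 22 detected and 17 called by limma. These counts were 34 and 31 with 1 SD, 44 and 42 without SPATA5 and SPATA13, 43 and 36 with olfactory receptor controls, and 40 and 31 with the median and MAD. The cause was not tested, beyond the height of the baseline that these rules set.

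Distances that fell below the baseline with 3 SD were those of GATA3 (-0.21), MAOA (-0.95), INSM1 (-0.79), SOX11 (-0.65), CHRNB4 (-0.86), ADRA1B (-0.79), WT1 (-0.50), SIX2 (-1.28), EYA1 (-1.21) and NEFM (-0.66). With the mean of log2 probe values CHRNB4 (-0.0338), ADRA1B (-0.37), SIX2 (-0.13) and EYA1 (-0.39) fell below it. With the median of the probes CHRNB4 (-0.94), ADRA1B (-1.06), WT1 (-0.13) and SIX2 (-0.60) did. On replicates 1 and 3 alone INSM1 (-0.0863), CHRNB4 (-0.0786) and SIX2 (-0.10) did, on replicates 2 and 4 alone MAOA (-0.15), SOX11 (-1.99), EYA1 (-0.13) and NEFM (-1.93), and on replicates 3 and 4 alone MAOA (-0.22), SIX2 (-0.24) and EYA1 (-0.34). With each replicate left out the distance ran from -0.10 to 0.63 for MAOA, -0.42 to 1.68 for SOX11, -0.0875 to 0.25 for SIX2, -0.21 to 0.28 for EYA1 and -0.49 to 1.63 for NEFM. The cause was not tested. Signal over background of single spots was not examined, which limits what low values can show.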
